A study of Mus musculus with 2 samples.

Results

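The 9 genes described here encode receptor chains for cytokines that act on blood-forming cells: Csf1r, Csf2ra, Csf2rb, Csf2rb2, Csf3r, Il3ra, Il6ra, Il6st and Il7r. They were taken by symbol from the gene counts of 2 mouse RNA-seq libraries, and all 9 were listed among the 24421 genes. Of the 9, 8 had a mean of at least 1 CPM, a count scaled to the library's sum of gene counts, and were tested among 12588 genes. Il7r was not.

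Both libraries came from hematopoietic stem cells (HSCs), the self-renewing source of every blood lineage, on a C57BL/6 background. Bone marrow of CD45.2 donors was placed in lethally irradiated CD45.1 recipients. The donors of the wild-type (WT) library carried Ezh2 +/+ with 1 copy of CreERT (CreERT+/-), and those of the other library carried Ezh2 Δ/Δ with CreERT+/-. Ezh2 is the catalytic subunit of Polycomb repressive complex 2, which methylates histone H3 at lysine 27. The recipients were given 100 µl of tamoxifen at 10 mg/ml daily for 5 days, by the protocol given for both libraries, and HSCs were sorted 1 month later as lineage-negative, Sca-1+, c-kit+, CD34-, CD150+, CD48- and Flt3- cells. The labels do not name the promoter that drives CreERT, the number of mice behind each library, or the exons that the deletion removes. Each group held 1 library, so the tests below compare these 2 libraries and have no replicate check, and every interval covers counting error only.

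Cytokine receptors of this kind pass signals from outside the cell through kinases. Csf1r is a receptor tyrosine kinase, whereas the other 8 belong to the class I cytokine receptors, which have no kinase domain and rely on bound Janus kinases (JAKs) that phosphorylate STAT transcription factors. Many work as pairs of a ligand-specific alpha chain and a shared signalling chain. Csf2ra (GM-CSF) and Il3ra (IL-3) pair with the common beta chain Csf2rb, Csf2rb2 is a mouse beta chain used by the IL-3 receptor, and Il6ra pairs with Il6st (gp130). Csf3r (G-CSF) forms homodimers, and Il7r pairs with the common gamma chain Il2rg. In the marrow Csf3r is best known from neutrophils and their precursors, Csf1r from monocytes and macrophages, and Il7r from lymphoid progenitors.

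The beta chain genes are near-copies, and this bears on how their reads were counted. In the GRCm38 (mm10) annotation GENCODE M21, Csf2rb2 lies on the minus strand at chr15:78282507-78305721 and Csf2rb on the plus strand at chr15:78325752-78353847, 20030 bases apart. Their coding sequences, of 2688 bases for Csf2rb and 2634 for Csf2rb2, were identical at 2503 of 2628 aligned bases (95.2%). The longest identical run was 242 bases, at coding bases 2083 to 2324 of each. The stretch from coding base 2265 to 2384 covers the end of that run and the first differences after it. It is shown because a read from the run cannot be given to 1 of the genes, while a read over the capitals, which mark the 2 bases that differ, can.
Csf2rb: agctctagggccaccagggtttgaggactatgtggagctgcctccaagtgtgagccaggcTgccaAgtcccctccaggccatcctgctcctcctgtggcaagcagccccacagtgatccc
Csf2rb2: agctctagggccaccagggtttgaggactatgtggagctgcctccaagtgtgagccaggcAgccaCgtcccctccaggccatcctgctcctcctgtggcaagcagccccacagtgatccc

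The other members lie apart from each other, and the 9 genes are spread over 7 chromosomes. Csf3r is at chr4:126024550-126044440 on the plus strand, Il6st at chr13:112464070-112510086 on the plus strand and Il3ra at chr14:14346275-14356011 on the plus strand. Csf2ra is at chr19:61223957-61228429, Il6ra at chr3:89864059-89913196 and Il7r at chr15:9505788-9530176, all on the minus strand. The position of Csf1r is given with its values. Il3ra overlaps the antisense gene Gm48860 and Il6ra the antisense gene Gm42809. Whether strand was used in counting is not given in the sources used here, so reads in those overlaps cannot be assigned with certainty.

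Promoters of 300 bases, from 250 before to 50 after the start, were given by RefSeq (GRCm38.p6) for 7 of the 9 members, all but Csf1r and Csf2rb. CpG dinucleotides were counted in them, since Polycomb complexes are known to be recruited to CpG-rich DNA. The 7 covered nearly the whole range of the 32851 promoters in the table, whose median was 7 CpGs. Il3ra had 35, Il6st 33, Il6ra 25 and Csf2ra 23. Csf3r had 9, Csf2rb2 3 and Il7r 1. The promoters of Il3ra (chr14:14346245-14346544, plus strand) and Il7r (chr15:9529827-9530126, minus strand) are shown as the ends of this range. That of Csf3r (chr4:126024409-126024708, plus strand) is shown because Csf3r differed most from genes of its level. Capitals mark CG.
Csf3r: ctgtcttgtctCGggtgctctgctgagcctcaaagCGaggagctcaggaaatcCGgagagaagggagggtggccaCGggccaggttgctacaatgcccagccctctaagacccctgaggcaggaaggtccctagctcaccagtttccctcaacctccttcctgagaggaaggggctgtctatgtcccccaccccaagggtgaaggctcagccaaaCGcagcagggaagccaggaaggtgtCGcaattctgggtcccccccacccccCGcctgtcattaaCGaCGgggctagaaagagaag
Il3ra: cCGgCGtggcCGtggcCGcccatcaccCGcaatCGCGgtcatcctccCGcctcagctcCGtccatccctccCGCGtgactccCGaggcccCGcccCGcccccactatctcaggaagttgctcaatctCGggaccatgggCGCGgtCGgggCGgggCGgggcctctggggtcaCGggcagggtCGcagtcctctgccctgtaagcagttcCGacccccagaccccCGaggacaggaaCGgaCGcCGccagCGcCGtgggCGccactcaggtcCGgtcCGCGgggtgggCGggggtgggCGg
Il7r: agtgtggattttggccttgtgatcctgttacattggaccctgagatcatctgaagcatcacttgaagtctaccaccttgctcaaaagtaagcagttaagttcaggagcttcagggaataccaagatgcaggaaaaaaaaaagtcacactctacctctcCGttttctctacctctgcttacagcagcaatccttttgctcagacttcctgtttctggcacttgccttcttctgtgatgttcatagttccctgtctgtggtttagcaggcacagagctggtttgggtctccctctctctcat

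More CpGs were found in the Il3ra promoter than in 93.0% of all promoters, more in that of Csf3r than in 54.2% and more in that of Il7r than in 5.43%. The letters GAGGAA, a core recognised by the myeloid factor PU.1, were searched on both strands. Matches were found in the promoters of Csf2ra (2), Csf2rb2 (2), Csf3r (1) and Il6ra (1), and 28.3% of all promoters held at least 1. The members with the most CpGs, Il3ra, Il6st, Il6ra and Csf2ra, had log2 ratios of -0.59, 0.16, 0.76 and 0.00, Ezh2 KO over WT. The counting interval of each held 0, as given below, so the direction of these members was not established. Whether CpG content bears on the differences between the libraries was not tested.

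The gene counts summed to 5763118 for WT and 4157280 for the library labelled Ezh2 KO, and 14141 and 14022 genes were detected. A floor of 3 counts was equal to 0.521 and 0.722 CPM. Ezh2 itself had 166 and 129 counts, or 142.5 and 150.3 after scaling by size factors, with a log2 ratio of 0.08 (95% interval -0.27 to 0.42). Its summed gene count therefore did not show the deletion, and the sample is called the library labelled Ezh2 KO throughout. The HSC markers were present in both, with summed normalised counts of 18260 and 18005, of which Kit gave 5202 and 5120. None of the 12 was called (0 higher, 0 lower), and 8 of 12 had a log2 ratio below 0. Procr, which encodes an HSC surface protein, had 1314 and 1029 counts (log2 ratio 0.09). Slamf1, which encodes the CD150 of the sort, had 520 and 248 (-0.62, 95% interval -0.85 to -0.41) and Fgd5 610 and 299 (-0.59, -0.79 to -0.39), both under the 2-fold threshold. Markers of eosinophils summed to 10.3 and 3787 normalised counts, and 6 of 9 of these genes were at 0 in WT. Markers of neutrophil granules summed to 10707 and 19753. Xist had 801 and 4 counts and the Y-linked gene Ddx3y 0 and 275. These are the patterns of mostly female cells in WT and mostly male cells in the other library, so sex differed along with genotype. Genotype, these differences and the library itself cannot be told apart with 1 library a group. In such RNA from many cells, fewer cells of a type and less RNA per cell cannot be told apart either.

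**Figure D1:**
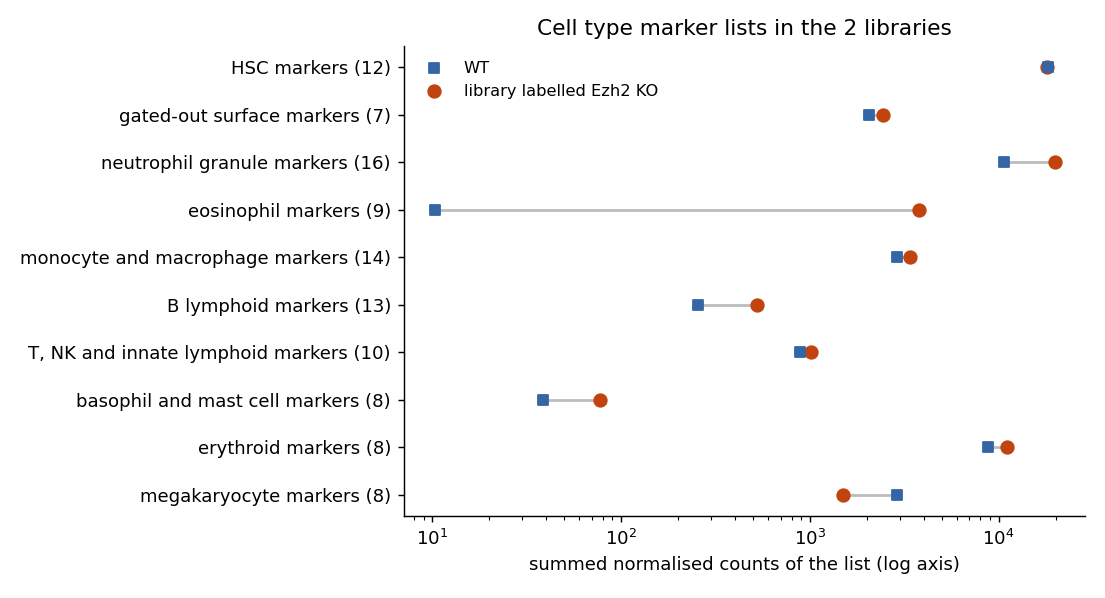
Summed normalised counts of each marker list (log axis) in WT (squares) and the library labelled Ezh2 KO (circles), with the number of genes of the list that the files hold in brackets. The HSC markers lie together at 18260 and 18005, while the eosinophil markers lie furthest apart, at 10.3 and 3787.

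The members were first ordered by level, as RPKM (CPM divided by the exon length in kilobases), which allows genes of different length to be compared. The tested members spanned 44.5-fold in WT, against 215-fold in the library labelled Ezh2 KO. Csf3r had the highest level in both libraries, with 23.2 RPKM in WT (exact Poisson 95% interval 21.2 to 25.4), and with 44.7 (41.4 to 48.2) in the library labelled Ezh2 KO. Csf2ra came next with 17.1 (15.2 to 19.2) and 17.5 (15.2 to 20.1). These 2 genes made up 41.2% and 30.4% of the members' summed RPKM in WT, against 58.3% and 22.8% in the library labelled Ezh2 KO.

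Both beta chains, gp130 and the IL-3 alpha chain formed a middle group. In WT Csf2rb led it at 4.91 RPKM, followed by Il6st at 3.67, Il3ra at 3.39 and Csf2rb2 at 2.78. The interval of Csf2rb (4.26 to 5.63) lay above that of Il6st but overlapped that of Il3ra (2.58 to 4.38). The intervals of the last 3 overlapped from neighbour to neighbour. In the library labelled Ezh2 KO the order was Il6st at 4.18, Csf2rb at 4.16, Csf2rb2 at 2.74 and Il3ra at 2.27, and no neighbours in it differed beyond their intervals. Csf1r at 0.721 and Il6ra at 0.522 RPKM were not separated in WT. In the other library Il6ra, at 0.919, stood above Csf1r, at 0.208. Il7r was last in both. Counting coding length alone placed Csf2ra above Csf3r, Il6st above Csf2rb and Il6ra above Csf1r in WT. The order within these pairs therefore depended on which length was used.

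**Figure D2:**
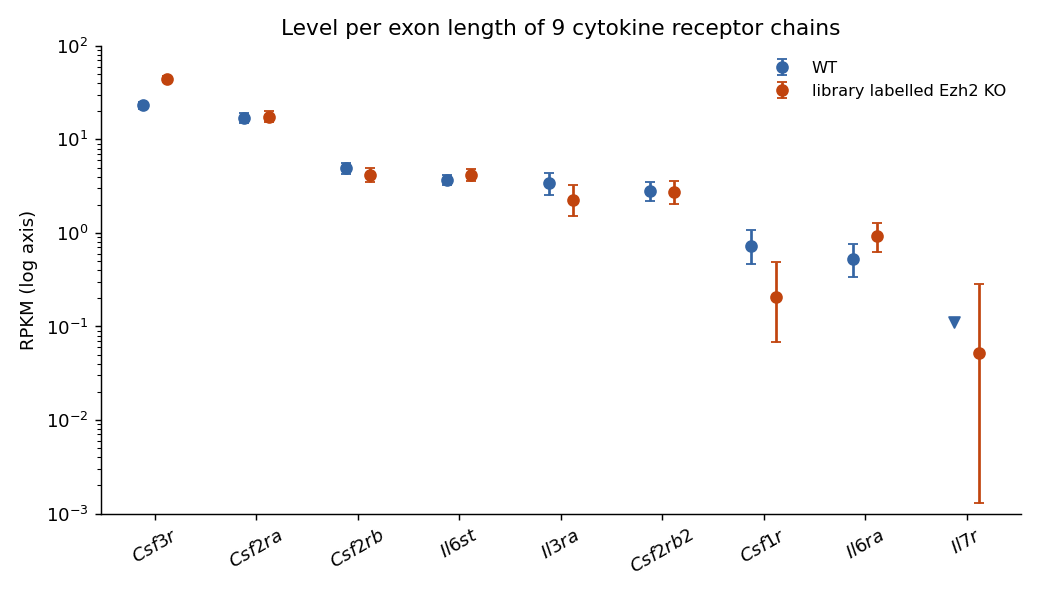
Level of each of the 9 receptor genes in RPKM (log axis) in WT and the library labelled Ezh2 KO, with exact Poisson 95% intervals, ordered by the WT level. Csf3r and Csf2ra lie above the rest, and the triangle for Il7r marks the level of 3 counts in WT (0.112 RPKM), where 0 were found.

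The comparison between the libraries used normalised counts, the exact binomial test with Benjamini-Hochberg adjustment over all 12588 genes, and a call at an adjusted value below 0.01 with at least a 2-fold difference. By this rule 0 of the 8 tested members were called higher and 0 lower. Of all tested genes, 353 (2.80%) were called higher and 290 (2.30%) lower in the library labelled Ezh2 KO, so 8 members are too few to show a share below the background. Calls were also rarer at high levels. They made up 13.7% of genes with a mean normalised count under 10 and 12.1% of those from 10 to 100, which held 4 of the members. From 100 to 1000, which held the other 4, they made up 1.08%, and over 1000, 0.842%. An unadjusted value below 0.05 was found for 3 members, Csf3r, Csf1r and Il6ra. The share of all tested genes below this value was not formed, so these members have no background here. At an adjusted value below 0.01 with no fold threshold, 1218 genes were called higher and 1425 lower, and Csf3r was the 1 member. The members' median log2 ratio was -0.02, with 4 above and 4 below 0, and that of all tested genes was -0.003. The 95% interval of 6 members held 0, and only those of Csf3r and Csf1r left it out.

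**Figure D3:**
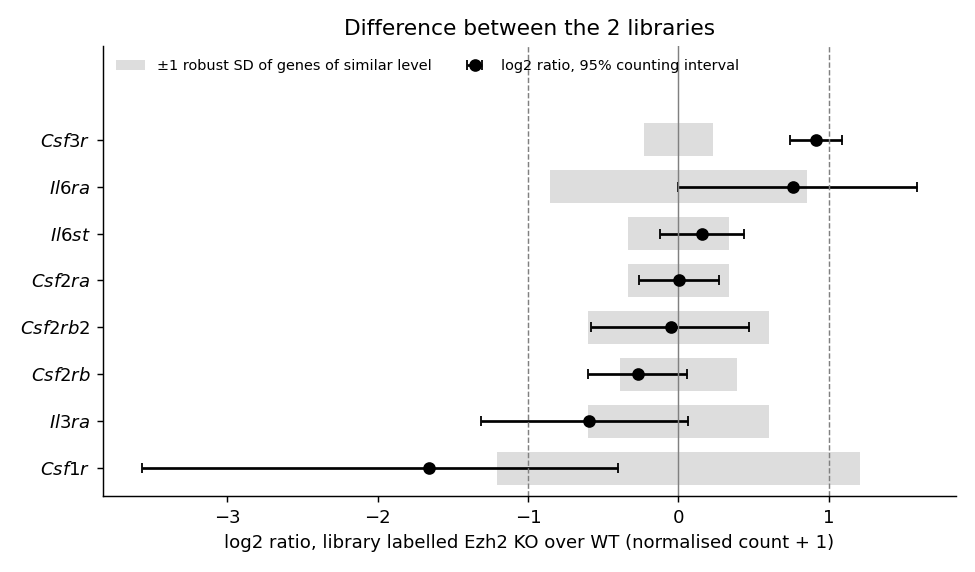
Log2 ratio of the 8 tested members, library labelled Ezh2 KO over WT, with 95% counting intervals (points and bars) over a grey band of 1 robust SD of genes of similar level on each side of 0. Dashed lines mark the 2-fold threshold, and Csf3r lies 4.07 robust SDs from the median of genes of its level.

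Csf3r, the receptor for G-CSF, the cytokine that drives granulocyte production, showed the most precise difference. WT gave 483 counts and the library labelled Ezh2 KO gave 671. After scaling these were 414.5 and 781.9, a 1.89-fold higher value in the library labelled Ezh2 KO. The log2 ratio was 0.91 (95% interval 0.74 to 1.09), and the adjusted value of the exact binomial test was 1.3e-24. The gene stayed under the 2-fold threshold. With a threshold of 1.5-fold it was called higher, as were 4.97% of all tested genes, while 5.05% were called lower and no member was among these. Genes of similar level had a robust SD of 0.23, so Csf3r lay 4.07 SDs from their median. When an edgeR exact test assumed a coefficient of variation of 0.2 or 0.4 between replicates, Csf3r was not called.

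The neutrophil granule list was divided. Of its 16 genes, 8 were called higher and 0 lower, with a median log2 ratio of 1.03 and a summed count 1.84-fold higher. Ngp, a protein of the later granules, had 2549 and 4621 counts (log2 ratio 1.30). Ltf, which encodes lactoferrin, had 930 and 1646 (1.26), and Cd177, a neutrophil surface protein, 176 and 360 (1.47). Camp, S100a8, Lcn2, Retnlg and Fcnb were the others called. As for Csf3r, 0 of these 8 calls were kept with an assumed coefficient of variation of 0.2 or 0.4. The 4 genes of the primary granules, formed earlier in the lineage, were not called and were grouped apart after their values were seen. Mpo had 1794 and 1536 counts (log2 ratio 0.22), Elane 860 and 374 (-0.76), Prtn3 1332 and 933 (-0.07) and Ctsg 122 and 89 (-0.01). The other 12 genes all had a log2 ratio above 0. Cebpe, a transcription factor of late granulocyte development, was called higher with 20 and 59 counts (log2 ratio 1.94), and not with either assumed coefficient. The part of granulocyte RNA in the Csf3r difference was not tested.

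Csf2ra, the alpha chain for GM-CSF, had the value nearest to equality. Its 283 and 209 counts came to 242.9 and 243.5 after scaling, with a log2 ratio of 0.00 (95% interval -0.26 to 0.27). A difference of more than 1.20-fold in either direction lay outside this interval. The alpha chain for IL-3, Il3ra, had 58 and 28 counts, or 49.8 and 32.6 after scaling. Its log2 ratio of -0.59 had a 95% interval from -1.31 to 0.07, so a difference was not detectable at this depth. Of the other partner of the beta chain, the IL-5 receptor alpha chain Il5ra, only 2 and 8 counts were found, with a log2 ratio of 1.93 (0.12 to 5.71) and no call.

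The beta chains stayed within counting error. Csf2rb, the chain shared by the GM-CSF, IL-3 and IL-5 receptors, had 206 and 126 counts, or 176.8 and 146.8 after scaling, and a log2 ratio of -0.27 (95% interval -0.60 to 0.06). Csf2rb2 had 76 and 54, or 65.2 and 62.9, and a log2 ratio of -0.05 (-0.58 to 0.47). Csf2rb took 73.0% of the counts of the pair in WT (exact binomial 95% interval 67.5 to 78.1) and 70.0% (62.7 to 76.6) in the other library. Reads that aligned to both genes were listed apart from the gene counts, and a sum of the pair cannot restore them. The sum of both genes was also formed. It came to 282 and 180 counts, or 242.0 and 209.8 after scaling, with a log2 ratio of -0.21 (-0.48 to 0.07). Stretches of 61 bases, the number of sequencing cycles, that both genes contain made up 9.52% of those of Csf2rb and 14.2% of those of Csf2rb2. Reads with more than 1 alignment were listed apart from the genes and made up 10.7% of all WT entries and 12.3% of those in the library labelled Ezh2 KO. Their part in the levels of the beta chains was not tested.

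Set per length against the beta chain, Csf2ra had 3.48 RPKM per RPKM of Csf2rb in WT (95% interval 2.90 to 4.19) and 4.20 (3.35 to 5.29) in the library labelled Ezh2 KO. Il3ra had 0.691 (0.507 to 0.928) and 0.545 (0.348 to 0.826). The GM-CSF alpha chain was therefore in excess over Csf2rb in both libraries and the IL-3 alpha chain was below it, and neither ratio differed between libraries beyond its interval. The eosinophil list, whose cells are known to use Csf2rb through the IL-5 receptor, moved from 12 to 3250 summed counts between the same libraries. Prg2, the eosinophil granule major basic protein, had 0 and 2030 counts, at least 919-fold higher against a floor of 3 counts per library, and Epx, eosinophil peroxidase, 0 and 1000, at least 453-fold higher. Prg3, Ear1, Ear2 and Ear6 were the others called, all at 0 in WT. Most of the summed counts were those of Prg2 and Epx. The surface receptor genes Ccr3 and Siglecf did not move, with 5 and 4 counts each (log2 ratio 0.10), and were not tested. The part of such cells in the beta chain counts was not tested.

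Of the IL-6 receptor, the signalling chain was far more abundant than the ligand-binding chain. Il6st (gp130), which is shared by IL-6, IL-11, LIF and related cytokines, had 235 and 193 counts, or 201.7 and 224.9 after scaling, with a log2 ratio of 0.16 (95% interval -0.12 to 0.44). Il6ra, which binds IL-6, had 26 and 33 counts, or 22.3 and 38.5 after scaling. Its log2 ratio was 0.76, with an interval from just under 0 to 1.59 and an adjusted value of 0.117. Per length Il6ra stood at 0.142 of Il6st in WT (0.091 to 0.214) and at 0.220 (0.147 to 0.319) in the other library, and these intervals overlapped. Of the other chains that work with gp130, Il11ra1 had 20.2 and 20.3 RPKM and Il27ra 38.7 and 33.3 RPKM, both above Il6st itself, while Lifr was at 0 in both libraries and Osmr had 0 and 1 counts.

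Csf1r, the receptor for the macrophage growth factor M-CSF, was the only tested member more than 2-fold apart. Its gene lies on the plus strand at chr18:61100598-61132149, and its 3′ end overlaps Hmgxb3 on the opposite strand. WT gave 24 counts and the library labelled Ezh2 KO gave 5, or 20.6 and 5.83 after scaling, 3.53-fold lower in the latter. The log2 ratio, with 1 added to each scaled count, was -1.66. Its 95% interval, formed without that 1, ran from -3.57 to -0.40, and the adjusted value of 0.0276 missed the threshold of 0.01. Genes of similar level had a robust SD of 1.21, so Csf1r lay -1.50 of these SDs from their median. The macrophage and monocyte markers gave no common direction. Of 14 genes, 11 were tested, 2 were called higher and 1 lower, and the list summed to 2879 and 3372 normalised counts. Lyz2, which encodes lysozyme, made up most of it with 2848 and 2512 counts. C1qb, a complement subunit of macrophages, had 33 and 59 counts, Adgre1, which encodes F4/80, had 0 and 9, and F13a1, a monocyte transglutaminase, had 15 and 0. Cx3cr1 and Marco were at 0 in both. The ligand Csf1 had 167 and 104 counts (log2 ratio -0.24, 95% interval -0.61 to 0.12), and the other ligand Il34 was at 0 in both.

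Il7r, the alpha chain for IL-7, had no count in WT (0) and a single count (1) in the library labelled Ezh2 KO. Both lay under the floor of 3 counts, and no fold was formed. Il2rg, the common gamma chain it pairs with, had 1960 and 1285 counts, or 142.5 and 129.5 RPKM. B lymphoid markers were seen beside this. Of 13 genes, 7 were tested, 5 were called higher and 0 lower, and the list summed to 256 and 523 normalised counts. Vpreb1, a part of the pre-B cell receptor, had 5 and 41 counts, and Cd79a, of the B cell receptor, 21 and 53. Vpreb3, Igll1 and Dntt were the others called, all at 0 in WT. A gene at 0 in WT passed the filter only through the other library, so it could only be called higher. Of the T, NK and innate lymphoid list, 1 of 5 tested genes, Cd3g, was called higher and 0 lower, with 883 and 1014 normalised counts in sum. Of its 10 genes, 5 were at 0 in WT and 3 in the other library, so its calls rest on few counts.

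The rest of the pathway was then examined in 7 lists of 138 genes in all, of which 115 were tested, each counted once although 5 stand in more than 1 list. In these, 3 were called higher and 2 lower, or 4.35% in either direction, near the 5.11% of all tested genes. With an assumed coefficient of variation of 0.2 only Il2rb of these 5 was called, and with 0.4 none (0). Of 41 other receptor chains 27 were tested, with 1 higher, 1 lower and a median log2 ratio of -0.03. High levels were found for Il2rg, given above, and for Kit, the receptor for stem cell factor and part of the sort, with 118.0 and 118.6 RPKM. Both lay above every member. Il2rb, the beta chain for IL-2 and IL-15, was called higher with 0 and 34 counts, at least 15.4-fold higher against a floor of 3 counts per library. Il10ra, the IL-10 receptor alpha chain, was called lower with 85 and 29 counts and a log2 ratio of -1.09 (95% interval -1.77 to -0.49). Flt3, which the sort selected against, had 98 and 140 counts (log2 ratio 0.95) and Epor, the erythropoietin receptor, 28 and 43 (1.03), and neither was called.

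**Figure D4:**
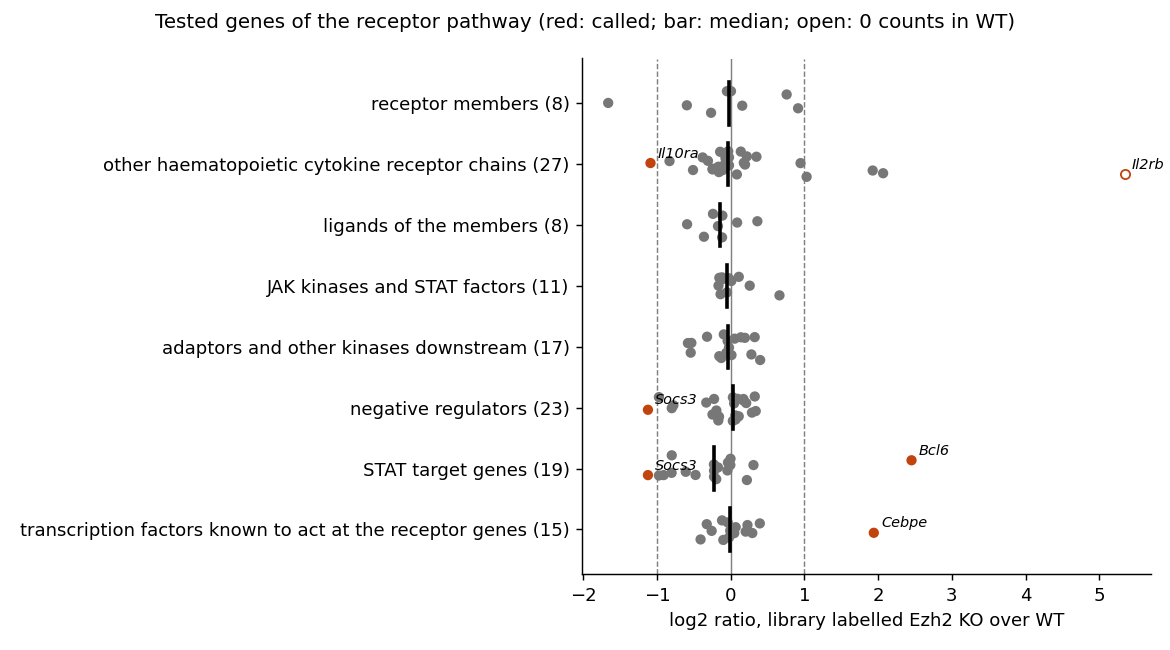
Log2 ratio, library labelled Ezh2 KO over WT, of every tested gene of the 9 receptors and of 7 pathway lists, with the number tested in brackets. Red marks called genes, open circles genes with 0 counts in WT, whose place depends on the pseudocount, and the black bar each median, which lies between -0.23 and 0.03.

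The lists downstream of the receptors were short, and none was tested as a set against this background. Of 11 JAK kinases and STAT factors, all tested, 0 were called, with a median log2 ratio of -0.05 and a range from -0.17 to 0.66. Jak1, used by gp130 and IL-7 receptors, had 85.2 and 84.0 RPKM and Jak3, which binds Il2rg, 66.9 and 81.8. Of 17 adaptors and other kinases 0 were called, with a median of -0.04. The highest levels among these were those of Plcg2, Vav1 and Grb2. Of 16 genes for ligands of the members, 8 were tested and 0 called, with a median of -0.14. Ebi3, a subunit of IL-27, had 79.4 and 104.2 RPKM, Ctf1 11.3 and 10.7 and Osm 7.26 and 6.56.

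Of 23 negative regulators, 0 were called higher and 1 lower, with a median log2 ratio of 0.03. The gene called was Socs3, an inhibitor induced by STAT3 that binds gp130 and the G-CSF receptor. It had 362 and 122 counts, or 310.6 and 142.2 after scaling, with a log2 ratio of -1.12 (95% interval -1.44 to -0.83). Socs2 had 873 and 327 counts (log2 ratio -0.97, 95% interval -1.16 to -0.79). Socs1 had 223 and 94 (-0.80, -1.17 to -0.45), and both were under the 2-fold threshold. Of the whole list, 13 genes had a log2 ratio above 0 and 10 below. The phosphatase Ptpn6 had 131.1 and 138.2 RPKM, Inpp5d 30.5 and 32.7 and Dok1 32.7 and 29.2. Of 19 STAT target genes, Bcl6, a transcriptional repressor, was called higher with 5 and 24 counts (log2 ratio 2.45) and Socs3 lower. The median of this list was -0.23, with 16 of 19 genes below 0, against 6344 of 12588 tested genes. At a 1.5-fold threshold 1 of the 19 was called higher and 5 lower, against 4.97% and 5.05% of all tested genes. Osm, Cish, Socs1, Socs2 and Socs3 of this list also stand in other lists, and the list was not tested as a set. Junb, an AP-1 subunit, had 734 and 399 RPKM, under the 2-fold threshold (log2 ratio -0.91), Mcl1, which protects from apoptosis, had 145 and 97.1 RPKM (-0.61), and Myc had 196 and 248 (0.31). Of 16 transcription factors known to act at the receptor genes, 15 were tested, 1 (Cebpe) was called higher and 0 lower, with a median of -0.01. Spi1, which encodes PU.1, had 772 and 553 counts (log2 ratio -0.04, 95% interval -0.20 to 0.12), Gata2 139 and 141 RPKM, Cebpb 114 and 87.6 and Fli1 78.1 and 78.5.

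The marker lists of the remaining cell types held called genes in varying number. Of 8 erythroid markers 5, among them Car1, Klf1, Ermap and Rhd, were called higher and 0 lower, with 8802 and 11058 normalised counts in sum. Of 8 megakaryocyte markers, 7 were tested and 1, Vwf, was called lower with 1677 and 411 counts, and the list summed to 2883 and 1493. The basophil and mast cell list summed to 38.6 and 76.9, with 1 of 3 tested genes, Prss34, called higher. Of its 8 genes, 6 were at 0 in WT and 3 in the other library. Of the genes for surface proteins that the sort selected against, 1 of 5 tested, Itgam, was called higher. Itgam had 73 and 131 counts (log2 ratio 1.27). Cd48 had 12 and 11 (0.29, counting interval -1.01 to 1.62) and Cd34 957 and 829 (0.23, 0.10 to 0.37), and neither was called. All 5 had a log2 ratio above 0, with a median of 0.29. The 5 include Ptprc (0.09), which encodes the antigen that told donors from recipients. With an assumed coefficient of variation of 0.2, calls were kept for 5 of 6 eosinophil, 4 of 5 B lymphoid and 1 of 5 erythroid markers and for 0 in the monocyte and macrophage, T, NK and innate lymphoid, basophil and mast cell, megakaryocyte and sorted-against lists. With 0.4, 4 of 6 eosinophil calls were kept, and 0 of the B lymphoid and 0 of the erythroid calls. The part of any of these cell types in the receptor values was not tested.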

How the data were processed

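RNA was measured in 2 libraries of sorted mouse HSCs, 1 WT and 1 labelled Ezh2 KO, made from total RNA with a SMARTer kit. The deposited values are raw counts, 1 row per gene symbol, with no normalisation by the authors. TopHat2 2.0.13, Bowtie2 2.1.0, StringTie, edgeR, bedtools and mm10 are named in the submitters' processing notes. The counting program and its strand setting are not given in the sources used here. The 5 closing entries of each file that name no gene held 56.1% and 56.9% of all entries and were left out of totals and tests.

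Counts were scaled by DESeq2 1.42.0 size factors (1.17 and 0.858), and compared by an exact two-sided binomial test of the counts of both libraries, since edgeR's quasi-likelihood test could not be fitted without replicates. This test was first run on simulated counts, where the changed genes differed more than Csf3r and lay at higher levels than Csf1r. That run therefore does not bear on these members. The test was then applied to genes with a mean of at least 1 CPM, with Benjamini-Hochberg adjustment over all of them. A gene at 0 in 1 library passed this filter only through the other, so it could be called in only 1 direction. A gene was called at an adjusted value below 0.01 and at least 2-fold on the log2(normalised count + 1) scale. Intervals are Clopper-Pearson (95%). Those of log2 ratios, like the folds, were formed without the added 1, which matters most at low counts. RPKM used the union of GENCODE M21 exons and exact Poisson intervals. Robust SDs are 1.4826 times the median absolute deviation in each of 10 equal groups of genes by mean level. PCR copies are not independent molecules, so intervals and floors cover counting error only. Alternatives were other scalings, filters, pseudocounts, thresholds, gene lengths, a thinned library, and edgeR 4.0.16 exact tests with an assumed coefficient of variation.

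The 9 members and the gene lists were chosen with earlier results of these data known. Named genes were all members, Ezh2, Il5ra, Kit, Flt3, Epor, called pathway genes, the 3 pathway genes of each list with the highest RPKM, and from each marker list the called genes and the 3 with the largest count, not all of which are printed. Il11ra1, Il27ra, Lifr, Osmr, Csf1, Il34, Spi1, Cd34, Cd48, Cx3cr1, Marco, Procr, Slamf1, Fgd5, Ccr3, Siglecf, Socs1, Socs2 and the primary granule genes were added after their values were seen. Some genes that this rule names are not reported here.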

Additional observations from a re-analysis of the deposited data

Results flagged for a closer look

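The share of entries with more than 1 alignment, which no gene count includes, was 12.3% in the library labelled Ezh2 KO (Wilson 95% interval 12.25 to 12.29) and 10.7% in WT (10.73 to 10.77), a ratio of 1.14. It stands out because it lies outside the gene counts and above the level in WT. How many of these entries came from the identical stretches of Csf2rb and Csf2rb2 was not tested. A group of 1 library allows no search for libraries far from the rest.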

How the results depend on the processing

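No paired analysis was possible because WT and Ezh2 KO hold 1 library each, without replicates, and for the same reason no library could be left out. Of 42 comparisons of member log2 ratios under other settings, 1 changed sign, that of Csf2ra, which came to -0.057 when the deeper library was thinned, and 0 changed a call. Csf3r was the 1 member called higher at a 1.5-fold threshold, with no fold threshold and beyond 3 robust SDs, and Csf1r the 1 member called lower at an adjusted threshold of 0.05. At that threshold of 0.05, 460 of all tested genes were called higher and 370 lower. Over all genes, the counts called higher and lower were 96 and 115 with a mean of at least 10 CPM, 626 and 636 at 1.5-fold, 1218 and 1425 with no fold threshold, 104 and 124 beyond 3 robust SDs, 41 and 22 with an assumed coefficient of variation of 0.2, and 8 and 2 with 0.4. Among pathway genes, the count called higher was 0 with at least 10 CPM, 5 at 1.5-fold, 13 with no fold threshold, 5 at an adjusted threshold of 0.05, 1 with a coefficient of variation of 0.2 and 0 with 0.4. The count called lower was 7 at 1.5-fold, 12 with no fold threshold, 0 with either coefficient and 4 beyond 3 robust SDs. Fewer genes are tested at 10 CPM, and a looser or stricter rule changes these counts by its construction. By coding length from GENCODE, an alternative added after seeing the data, 3 of 9 members kept their rank in WT; the planned length from a protein table was not run. Of 122 comparisons of main results with alternatives, 93 were labelled the same. For a number of genes this means equal to the main value or within 1.5-fold of it. For a log2 ratio it means the same sign, with the call also unchanged where one was made. Total-count scaling set the median log2 ratio of tested genes to 0.03. Depth limited Il7r, Csf1r, Il6ra and Il3ra most.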
